A study of Mus musculus with 17 samples.

Results

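The microRNA miR-126a was measured in mouse serum through both strands of its hairpin, mmu-miR-126a-3p and mmu-miR-126a-5p. These are the 2 assays of that name among 357 miRNA assays of a quantitative PCR panel, which also held 8 control assays. They were taken by assay name and not by a rule on measured values, although earlier results of these data were known at the choice. Neither arm differed between groups past the threshold, and the largest differences were lower miR-126a-5p in both transgenic groups than in wild-type serum.

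Serum came from 7 transgenic AT-ATX mice with spontaneous tumors, 7 transgenic AT-ATX mice without tumors, and 3 healthy wild-type FVB/N mice. The transgene is Autotaxin, a secreted enzyme that makes the signalling lipid lysophosphatidic acid, and the labels do not name the promoter that drives it. The labels state neither age nor tumor site, nor whether the transgenic mice share the FVB/N background, and tumor mouse 5 carries a question mark in its label. Some transgenic mice of both groups share a number in their labels, 77 or 85, whose meaning is not stated. Because every tumor-bearing mouse is also transgenic, a comparison with wild type holds the transgene and the tumor together. Tumor-bearing against tumor-free mice compares animals that all carry the transgene.

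miR-126 is one of the miRNAs most characteristic of endothelial cells, the lining of blood vessels, and lies within an intron of Egfl7, itself an endothelial gene. The 3p arm is known to lower SPRED1 and PIK3R2, inhibitors of growth factor signalling, and the adhesion molecule VCAM1. The 5p arm is known to lower DLK1, a Notch pathway inhibitor, in endothelial cells. Platelets also carry miR-126 and can release it during clotting, so serum can hold miR-126 of vessel and platelet origin together. In serum, release by fewer cells and less miRNA per cell cannot be told apart.

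The mature 3p arm and the hairpin are shown because the seed, bases 2 to 8 of the mature arm, sets which messages a miRNA recognises, and because the hairpin carries both arms. The sequences are those of RefSeq on GRCm38.p6, plus strand. In the mature sequence the seed is in capitals, and in the hairpin the 3p arm is in capitals, at hairpin positions 46 to 67.
mmu-miR-126a-3p: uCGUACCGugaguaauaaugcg
Mir126a hairpin: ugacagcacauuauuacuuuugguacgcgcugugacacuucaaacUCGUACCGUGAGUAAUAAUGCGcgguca
The mature arm has 22 bases, at chr2:26591402-26591423, and the hairpin has 73 bases, at chr2:26591357-26591429. The hairpin lies inside the annotated span of Egfl7. A mature sequence was found for 260 assays of the panel, and 0 of the others shares the seed CGUACCG. The same holds over the reference table, where 0 other entries among 1679 mature miRNAs have it. The Mir126b hairpin, which has no assay on the panel, is the reverse complement of a stretch that starts at base 7 of the Mir126a hairpin.

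The assays were run on RNA from 50 µL of serum over 40 PCR cycles and read as the quantification cycle, Ct, at which the signal crosses a threshold. More template gives a lower Ct, with 1 cycle for each 2-fold at full PCR efficiency. A level is the panel mean, taken over the 252 miRNA assays found in each of the 17 mice, minus the assay's own Ct, a log2 scale relative to the panel and not an amount per volume of serum. Between 312 and 356 miRNA assays were detected per mouse. The latest Ct in the table was 36.998. Both miR-126a arms were detected in all 17 mice.

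miR-126a-3p crossed the threshold at 26.66 ± 1.17 cycles in tumor-bearing mice, 25.87 ± 0.85 in tumor-free AT-ATX mice and 24.38 ± 1.73 in wild-type mice (SD, n = 7, 7 and 3). The Ct of miR-126a-5p was 30.54 ± 1.47 in tumor-bearing mice, 30.03 ± 0.97 in tumor-free AT-ATX mice and 27.67 ± 0.89 in wild-type mice (SD, n = 7, 7 and 3). The 3p arm thus came up earlier than the 5p arm in every group, although the 2 assays may differ in efficiency. Averaged over all mice, the 3p level was 3.43, rank 38 of the 252 always-detected assays, and the 5p level was −0.46, rank 125. The within-group SD of the level was 0.76 for 3p and 0.84 for 5p, against a median of 0.85 over the 252 assays.

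In tumor-bearing mice the miR-126a-3p level ran from 0.95 through a median of 3.26 to 4.08. In tumor-free AT-ATX mice it ran from 3.11 through 3.49 to 3.79. The 3 wild-type mice had levels of 4.61, 3.00 and 4.38. The tumor-free mice were packed within less than 1 cycle, and all 7 lay inside the wild-type range. Tumor-bearing mice overlapped both other groups, and only tumor mouse 5, at 0.95, lay below all 3 wild-type mice. All 7 mice of each transgenic group were nevertheless below the wild-type median.

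**Figure D1:**
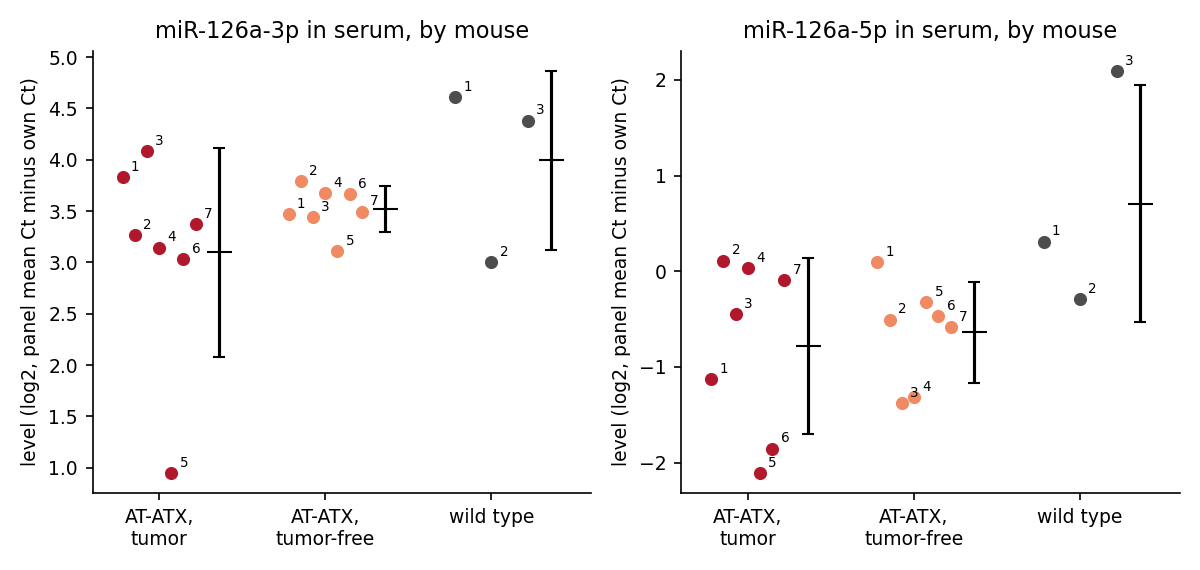
Level of miR-126a-3p and miR-126a-5p in each mouse, in log2 units relative to the mean of the 252 always-detected miRNA assays, by group, with the group mean and SD. Tumor mouse 5 has the lowest 3p level, at 0.95, and wild-type mouse 3 the highest 5p level, at 2.10.

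The miR-126a-5p level in tumor-bearing mice ran from −2.11 through a median of −0.45 to 0.11. In tumor-free AT-ATX mice it ran from −1.38 through −0.51 to 0.10. The wild-type levels were 0.31, −0.29 and 2.10. Of the tumor-free mice 6 of 7, and of the tumor-bearing mice 4 of 7, were below all wild-type mice, and all 7 of each group were below the wild-type median. The wild-type mice themselves were spread over more than 2 cycles.

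Tumor-bearing against tumor-free AT-ATX serum sets tumors against none within the same genotype. The 3p level averaged 3.10 ± 1.02 in tumor-bearing mice and 3.52 ± 0.22 in tumor-free mice (SD, n = 7 each), a difference of −0.42 with a standard error of 0.42. As a ratio this was 0.746, with a 95% interval of 0.405 to 1.37 (limma, Benjamini-Hochberg adjusted over 338 assays, adjusted p = 0.688). The 5p level averaged −0.78 ± 0.92 in tumor-bearing mice and −0.64 ± 0.53 in tumor-free mice (SD, n = 7 each). The difference was −0.14 with a standard error of 0.45, a ratio of 0.905 with an interval of 0.470 to 1.74 (limma adjusted p = 0.875). Neither arm was called, in a comparison where 5 of the 338 tested assays, 1.48%, passed an adjusted p of 0.05. By unadjusted p the 3p arm ranked 161 and the 5p arm 290 of 338. Without tumor mouse 5 the 3p difference was −0.065 and the 5p difference 0.077, so the sign of the 5p difference was not kept.

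Tumor-free AT-ATX against wild-type serum asks about the transgene without tumors. The 5p level of −0.64 ± 0.53 in tumor-free mice stood against 0.71 ± 1.24 in wild-type mice (SD, n = 7 and 3). The difference was −1.34 with a standard error of 0.58 and a 95% interval of −2.56 to −0.13, a ratio of 0.394. Its unadjusted limma p was 0.0323 and its adjusted p was 0.187, rank 56 of 338. The 3p level of 3.52 ± 0.22 in tumor-free mice stood against 3.996 ± 0.87 in wild-type mice (SD, n = 7 and 3). That difference was −0.48 with a standard error of 0.55 and an interval of −1.61 to 0.66 (limma adjusted p = 0.611). Neither arm was called, where 2 of 338 assays, 0.592%, were.

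Tumor-bearing AT-ATX against wild-type serum gave the largest miR-126a differences. The 5p level of −0.78 ± 0.92 in tumor-bearing mice stood against 0.71 ± 1.24 in wild-type mice (SD, n = 7 and 3). The difference was −1.49 with a standard error of 0.58 and a 95% interval of −2.71 to −0.27, a ratio of 0.356. The unadjusted limma p was 0.0192 and the adjusted p was 0.120, rank 54 of 338. The 3p difference was −0.90 with a standard error of 0.55 and an interval of −2.04 to 0.24 (limma adjusted p = 0.320). Neither arm was among the 28 of 338 assays, 8.28%, that passed in this comparison. The median difference over all tested assays was 0.19 here, 0.03 for tumor-free against wild type and 0.14 for tumor-bearing against tumor-free.

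The differences from wild type rested in part on single mice of that group of 3. Without wild-type mouse 3, whose 5p level was 2.10, the 5p difference was −0.83 for tumor-bearing mice (limma unadjusted p = 0.199) and −0.67 for tumor-free mice (unadjusted p = 0.292). Without wild-type mouse 2, the 3p difference was −1.40 for tumor-bearing mice (limma unadjusted p = 0.0316, adjusted p = 0.222) and −0.97 for tumor-free mice (adjusted p = 0.489). Without wild-type mouse 1 the 3p difference was −0.60 for tumor-bearing mice (limma adjusted p = 0.567) and −0.18 for tumor-free mice (adjusted p = 0.871). Without tumor mouse 5 the 3p difference of tumor-bearing from wild-type mice was −0.54. The adjusted p of either arm stayed above the threshold in each of these fits.

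The size of the differences depended on what the levels were set against. On raw Ct, with sign turned so that negative means less template, tumor-bearing serum differed from wild type by −2.28 for 3p (limma adjusted p = 0.105) and −2.87 for 5p (adjusted p = 0.0668). Over all tested assays the median on that scale was −1.22, so most of the panel was later in tumor-bearing serum. Tumor-free serum differed from wild type by −1.50 for 3p and −2.36 for 5p on raw Ct, where the median of all assays was −1.07. Against the spike-in controls, synthetic RNAs added during handling, the tumor-bearing differences were −2.02 for 3p and −2.61 for 5p, beside a median of −0.94. On raw Ct, 6 of 7 mice of each transgenic group were later than all wild-type mice for 5p. For 3p this held for 6 of 7 tumor-bearing and 5 of 7 tumor-free mice. Both arms were below the panel median on these scales too, and neither passed on any of them.

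**Figure D2:**
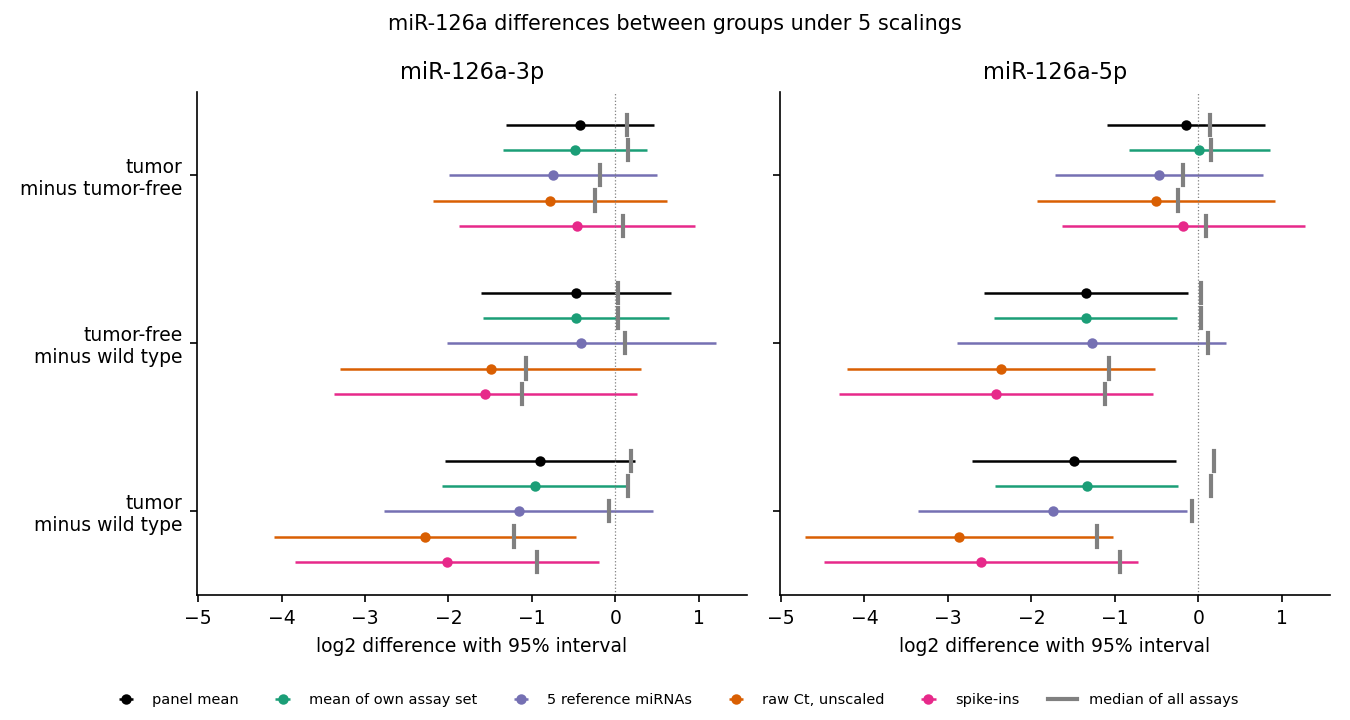
Differences of the 2 arms in log2 units, tumor-bearing minus tumor-free, tumor-free minus wild type and tumor-bearing minus wild type, with 95% intervals, under 5 scalings, beside the median of all tested assays. Against wild type both arms lie below 0 under each scaling drawn, and the 5p values on raw Ct reach −2.87.

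The difference between the arms of 1 hairpin was taken within each mouse as the Ct of 5p minus the Ct of 3p, the log2 of 3p over 5p. It averaged 3.88 ± 0.87 in tumor-bearing mice, 4.16 ± 0.62 in tumor-free mice and 3.29 ± 1.01 in wild-type mice (SD, n = 7, 7 and 3). In tumor-bearing mice it ran from 3.06 through 3.47 to 4.96, and in tumor-free mice from 3.37 through 4.14 to 4.98. In wild-type mice it was 4.30, 3.29 and 2.29. The groups overlapped. Tumor-bearing minus tumor-free mice differed by −0.28 (exact two-sided permutation test, p = 0.497, adjusted over 3 comparisons p = 0.497). Tumor-free minus wild-type mice differed by 0.87 (exact permutation p = 0.125, adjusted p = 0.375), and tumor-bearing minus wild-type mice by 0.59 (exact permutation p = 0.4, adjusted p = 0.497). The smallest p that 7 against 3 mice allow is 0.00833. Single mice moved these values by a large part of their size. Without wild-type mouse 1 the difference from wild type was 1.09 for tumor-bearing mice and 1.37 for tumor-free mice (exact permutation p = 0.0278, adjusted p = 0.0833, for tumor-free mice). That p of 0.0278 is the smallest that the mice left in these groups allow. Without wild-type mouse 3 it was 0.088 for tumor-bearing mice and 0.37 for tumor-free mice. Tumor-bearing minus tumor-free mice ran from −0.46, without tumor mouse 1, to −0.14, without tumor-free mouse 4 or tumor mouse 5.

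The arms belong to different sets of assays in the deposited table. In 13 samples the last decimals of the Ct values take 2 endings, which split the 365 assays into the same sets of 245, holding 3p, and 120, holding 5p, with 0 assays placed differently. The labels and the table do not say what the endings mean. An offset between the sets in a mouse would enter the arm difference, and its part in the result was not tested.

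**Figure D3:**
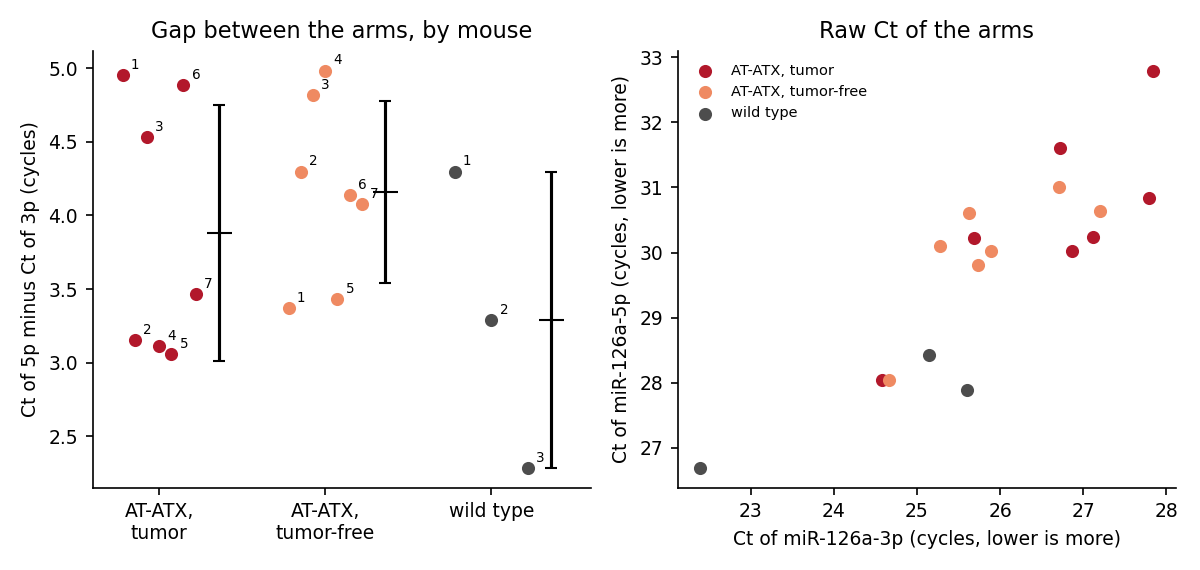
Arm difference of miR-126a in each mouse, as the Ct of 5p minus the Ct of 3p in cycles, by group, with the group mean and SD. The groups overlap, with means of 3.88 in tumor-bearing, 4.16 in tumor-free and 3.29 in wild-type mice.

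Among the 39 hairpins with both arms detected in every mouse, the arm difference of miR-126a was of middling size and spread. Its size of 3.89 cycles ranked 14, against a median of 2.74, and its within-group SD of 0.797 ranked 18, against a median of 0.82. Its 3p arm came up earlier, as in 18 of the 39 hairpins, and 29 of the 39 likewise had their arms in different sets.

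Levels of the arms were only loosely related from mouse to mouse. With group means removed, Pearson's r over the 17 mice was 0.51 (permutation p = 0.117, adjusted over 5 relations p = 0.528) and Spearman's rho 0.46 (permutation p = 0.127). Leaving out the 2 mice farthest from the median gave r = 0.39, and leaving out tumor mouse 5 gave 0.26, so the value rested largely on that mouse. Within the 7 tumor-bearing mice r was 0.60 and within the 7 tumor-free mice −0.21. Across the 39 hairpins the same r had a median of 0.33 and a range of −0.58 to 0.95, and miR-126a ranked 17. Raw Ct of the arms, which share each mouse's overall Ct, correlated at r = 0.77 (permutation p = 0.00044, adjusted p = 0.0022), with rho 0.71 (permutation p = 0.00375) and r = 0.75 without the 2 farthest mice.

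Red cell rupture was gauged by how many cycles earlier miR-451a, abundant in red blood cells, came up than miR-23a-3p. This index was 3.97 ± 1.97 in tumor-bearing, 4.38 ± 0.84 in tumor-free and 5.61 ± 2.07 in wild-type mice (SD, n = 7, 7 and 3). It correlated with the 3p level at r = −0.34 (permutation p = 0.347, adjusted p = 0.528), with rho −0.38. With the 5p level r was 0.0065 (permutation p = 0.984) and rho 0.088. With the index as a covariate the tumor-bearing minus wild-type difference was −1.16 for 3p (limma adjusted p = 0.185) and −1.48 for 5p (adjusted p = 0.137). The levels were also weakly related to the mean Ct of the panel, at r = 0.28 for 3p and 0.25 for 5p (permutation, adjusted p = 0.528 each).

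The assays most like each arm were ranked by r of the levels over the 17 mice with group means removed, as a description. For miR-126a-3p they were miR-574-3p at 0.79, rno-miR-215 at 0.78, miR-145a-5p at 0.77, miR-215-5p at 0.76 and miR-149-5p at 0.72. miR-145a-5p is known from smooth muscle and miR-215 from the gut lining. Without tumor mouse 5 these values were 0.62, 0.32, 0.38, 0.16 and 0.44, so the list of likenesses to 3p rested on that mouse. miR-126a-5p stood at rank 22 of 251 for likeness to 3p, and at rank 59 without this mouse. The least alike were miR-326-3p at −0.82, miR-22-3p at −0.80 and miR-676-3p at −0.77, and without the mouse these stood at −0.43, −0.47 and −0.50.

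For miR-126a-5p the most alike were miR-330-3p at 0.70, miR-30a-3p at 0.60, miR-322-3p at 0.60, miR-1199-5p at 0.59 and miR-511-5p at 0.56. Without tumor mouse 5 miR-330-3p kept rank 1 at 0.66, and the next 3 stood at 0.60, 0.57 and 0.59, whereas miR-511-5p stood at 0.37, rank 19. miR-126a-3p ranked 9 for likeness to 5p, and 39 without this mouse. The least alike were miR-151-5p at −0.71, miR-101b-3p at −0.66 and miR-361-5p at −0.65, which without the mouse stood at −0.62, −0.58 and −0.54. All of the 5 most alike but miR-511-5p lie in the assay set of 5p, and the 3 least alike lie in the other set. Of the most and least alike for 3p, all but rno-miR-215 lie in the set of 3p. The part of the set split in these likenesses was not tested.

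By level, both arms were lowest of their group in tumor mouse 5. Its 3p level of 0.95 stood against 3.04 to 4.08 in the other 6 tumor-bearing mice, 2.51 below their mean. Its 5p level of −2.11 stood against −1.85 to 0.11 in the other 6, 1.55 below their mean. On raw Ct tumor mouse 1 was later than this mouse for both arms, at 27.84 against 27.79 for 3p and 32.80 against 30.84 for 5p. The panel mean Ct of tumor mouse 5 was 28.73, against 29.75 ± 1.18 over the 7 tumor-bearing mice (SD). The other 11 always-detected miRNAs of the endothelial and vessel growth list described next had, on average, their highest tumor-bearing level in this mouse, at 1.35, in a range of 0.27 to 1.35 over the 7. That mean ran from −0.12 to 0.27 in tumor-free and from 0.42 to 0.67 in wild-type mice. Tumor mouse 5 had the lowest level of 44 and the highest of 61 of the 252 assays among the 7 tumor-bearing mice. Counts in the other mice ran from 18 to 62 lowest and 14 to 52 highest. The small nuclear RNA U6 crossed at 25.5 cycles in this mouse, against 30.9 to 34.7 in the other 6. Its part in the miR-126a values was not tested.

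Other miRNAs tied to endothelial cells and vessel growth were taken as a list of 14 that includes both arms, and all 14 were tested. In tumor-bearing against tumor-free mice 11 differences were above 0 and 3 below, with a median of 0.57 against 0.14 over all assays, and 0 passed (limma). The 3 below 0 were both miR-126a arms and miR-218-5p, at −0.55, a miRNA of Slit and Robo signalling. The highest was miR-322-5p, of the mouse miR-322 and miR-503 cluster, at 1.34 with a limma adjusted p of 0.0649. miR-132-3p, linked to vessel sprouting, was at 1.22, and miR-210-3p, the miRNA of the response to low oxygen, at 1.02.

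In tumor-free against wild-type mice 4 of the 14 were above 0 and 10 below, with a median of −0.80 against 0.03 over all assays, and again 0 passed. miR-222-3p, which lowers the receptor KIT, was the lowest at −1.41 (limma adjusted p = 0.157), next to miR-10a-5p at −1.40 and miR-126a-5p at −1.34. The highest was miR-503-5p at 2.28 (limma adjusted p = 0.072), which passed against the mean of its own assay set (2.25, adjusted p = 0.0484). In tumor-bearing against wild-type mice 9 were above 0 and 5 below, with a median of 0.30 against 0.19, and miR-126a-5p was the lowest of the 14. A single pass among the 14 is near the share of all assays here, 28 of 338 or 8.28%. The 1 member that passed was miR-503-5p, a miRNA known to restrain endothelial growth, higher by 2.79 with a standard error of 0.60 (limma adjusted p = 0.00824). Its mean levels were −2.05 in tumor-bearing mice and −4.84 in wild-type mice, and the fit used 2 wild-type mice because it was not detected in the other, so that it could not be tested without either of these 2. On raw Ct it was at 2.10 (limma adjusted p = 0.178) and against spike-ins at 2.30 (adjusted p = 0.202). The list's median in this comparison was −1.08 on raw Ct and −0.82 against spike-ins.

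**Figure D4:**
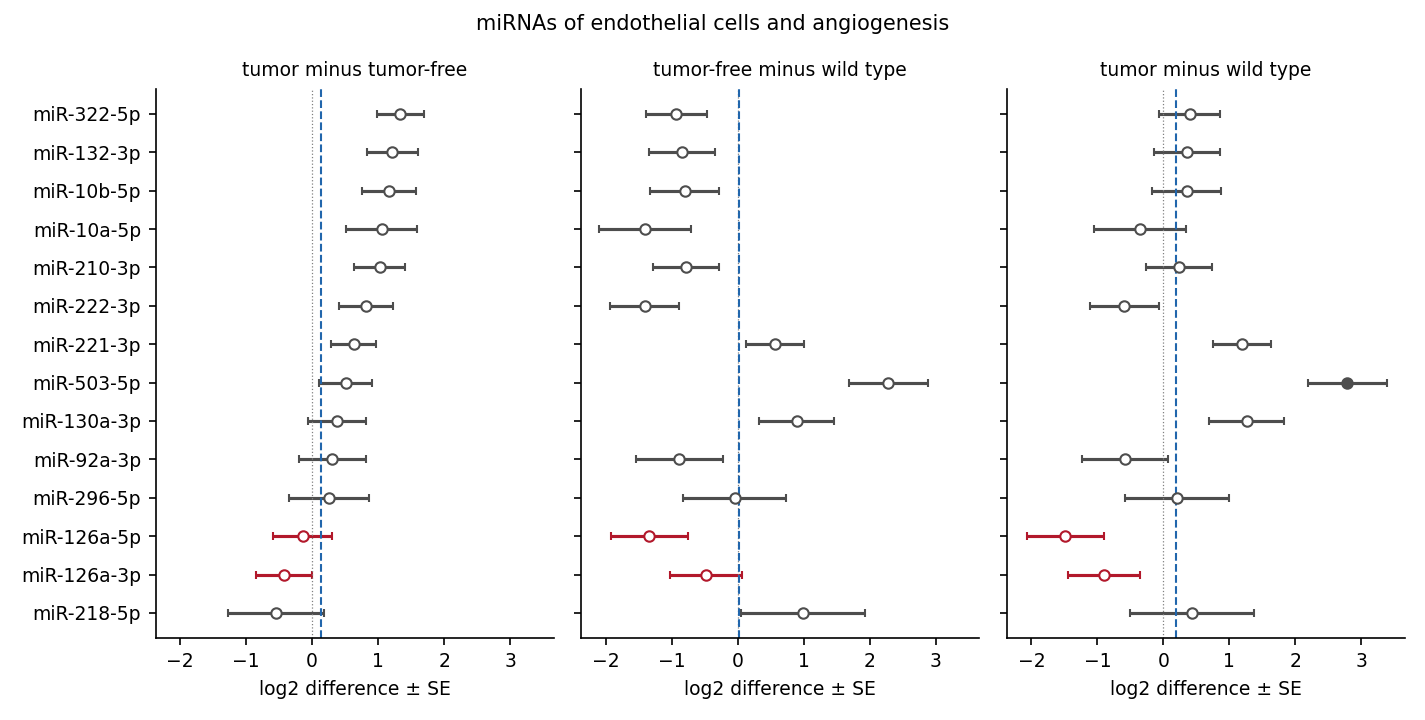
Differences in log2 units of the 14 listed endothelial and vessel growth miRNAs in the 3 comparisons, with standard errors, and the median over all tested assays as a line. miR-126a-5p is lowest of the 14 in tumor-bearing minus wild-type mice, where miR-503-5p is highest at 2.79.

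Platelet miRNAs, a list of 11 of which 10 were in the table and tested, gave medians of −0.28 in tumor-bearing against tumor-free mice, 0.03 in tumor-free against wild type and 0.32 in tumor-bearing against wild type. Above 0 were 4, 5 and 5 of the 10. On raw Ct the tumor-free against wild-type median was −0.99 and the tumor-bearing against wild-type median −1.06, and against spike-ins they were −1.05 for tumor-free and −0.80 for tumor-bearing mice. Between tumor-bearing and tumor-free mice its differences ran from −1.03 for miR-28a-5p to 0.89 for miR-21a-5p. Against wild type miR-199a-3p was the highest, at 2.02 in tumor-bearing and 2.35 in tumor-free mice, with miR-107-3p the lowest in tumor-bearing mice, at −1.28, and miR-103-3p in tumor-free mice, at −0.996. The list's mean level per mouse was 2.10 to 3.27 in tumor-bearing, 2.54 to 3.35 in tumor-free and 2.21 to 3.02 in wild-type mice. In tumor-bearing against wild-type mice 1 of the 10 passed, near the share of all assays there, 28 of 338 or 8.28%. The 1 member past the threshold was miR-223-3p, abundant in myeloid cells and platelets. It was higher in tumor-bearing than in wild-type mice by 1.96 with a standard error of 0.56 (limma adjusted p = 0.0333). That call was lost with 5 reference miRNAs as the scale (1.70, limma adjusted p = 0.165), on raw Ct (0.58, adjusted p = 0.700), against spike-ins (0.84, adjusted p = 0.637), with quantile scaling (1.84, adjusted p = 0.069) and with the red cell index as covariate (1.46, adjusted p = 0.0668). It was lost also without wild-type mouse 2 (limma adjusted p = 0.145), wild-type mouse 3 (0.126) or tumor mouse 2 (0.0509). A rat assay of the same number, rno-miR-223-3p, was also tested. In tumor-free against wild-type mice it was at 0.44 (limma adjusted p = 0.649), where mmu-miR-223-3p was at 1.28 (adjusted p = 0.187). Neither assay passed there, and mmu-miR-223-3p was called only in tumor-bearing against wild-type mice. The rat assay's value in that comparison is not given here, so these values do not bear on the call.

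Of the red blood cell list, 5 of 8 listed names were tested, alternative names counted apart, and 0 passed (limma). Their medians were 0.36 in tumor-bearing against tumor-free mice, −1.17 in tumor-free against wild type and −0.65 in tumor-bearing against wild type. The first of these medians was −0.00018 on raw Ct and −0.037 with quantile scaling. Against wild type the medians on raw Ct were −2.03 for tumor-bearing and −2.19 for tumor-free mice, and against spike-ins −1.77 for tumor-bearing and −2.25 for tumor-free mice. The list's mean level ran from 6.57 to 9.86 in tumor-bearing, 7.08 to 8.93 in tumor-free and 8.08 to 9.98 in wild-type mice. The red cell miRNAs miR-451a and miR-16-5p did not pass against wild type. miR-451a was at −0.43 in tumor-bearing and −0.49 in tumor-free mice, and miR-16-5p at −0.90 in tumor-bearing and −1.32 in tumor-free mice. miR-363-3p was the highest of this list against wild type, at 1.30 in tumor-bearing and 1.61 in tumor-free mice, and the lowest in tumor-bearing against tumor-free mice, at −0.31, where miR-25-3p was the highest at 0.76. The lowest against wild type were miR-16-5p in tumor-bearing mice and miR-25-3p in tumor-free mice, where miR-25-3p was at −1.41.

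Smooth muscle and pericyte miRNAs, from cells that wrap vessels, had 5 of 9 listed names tested, alternative names counted apart, and 0 passed. All 5 were below 0 in tumor-bearing against tumor-free mice, with a median of −0.33, from −1.68 for miR-199b-5p to −0.21 for miR-143-3p. Against wild type all 5 were above 0, with medians of 1.10 for tumor-free and 0.89 for tumor-bearing mice, the opposite sign to both miR-126a arms. The lowest was miR-145a-5p, at 0.083 in tumor-bearing and 0.42 in tumor-free mice, and the highest miR-199b-5p, at 1.27 in tumor-bearing and 2.94 in tumor-free mice. These signs did not hold on other scales. On raw Ct 0 of the 5 were above 0 in tumor-bearing mice, with a median of −0.49, and 3 of 5 in tumor-free mice, with a median of 0.081. Against spike-ins 2 of 5 were above 0 in tumor-bearing mice, with a median of −0.23, and 3 of 5 in tumor-free mice, with a median of 0.019. The part of platelet or smooth muscle miRNA in the miR-126a levels was not tested.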

How the data were processed

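Per the labels' protocols, blood taken at necropsy was centrifuged, RNA from 50 µL of serum was reverse transcribed, and PCR with SYBR Green detection took 40 cycles, on 2 panel plates. The authors deposited Ct values without normalization, per the file itself, with empty cells for undetected assays. The sources used here do not state how Ct was called or whether plates were offset. The 3 groups follow the labelled source.

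Levels were the mean Ct of the 252 always-detected miRNA assays minus the assay's Ct. All groups entered 1 fit with limma 3.58.1 in R 4.3.3 (lmFit, eBayes), over the 338 assays detected in at least 2 wild-type, 5 tumor-free and 5 tumor-bearing mice, with Benjamini-Hochberg adjustment and a threshold of 0.05. The arm difference was tested by exact permutation, and relations between measures by 100000 permutations within groups (Python 3.11.15, scipy 1.17.1). Scripts were tested on simulated data. Alternatives changed the scale, the filter, the test and the mice included. The miRNAs named are the arms, the 5 most and 3 least like each, the index miRNAs and, per list, the highest, the lowest and any that passed, and a few other listed miRNAs were named after their values were seen. The members and lists were chosen with earlier results of these data known. Numbers of mice limit the precision, above all the 3 wild-type mice.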

Additional observations from a re-analysis of the deposited data

Results flagged for a closer look

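The miR-126a-3p level of tumor mouse 5, at 0.948, stood apart from its group. The gap to the next of the 7 tumor-bearing mice, at 3.04, was 0.665 of the whole range of the group, more than Dixon's test allows at the 95% level. Both transgenic groups were examined for 3p, 5p and their difference, 6 sets of values in all, and chance flags about 1 in 20 such sets. Without this mouse the tumor-bearing minus tumor-free difference of 3p was −0.065, against −0.42 with it. On raw Ct tumor mouse 5 was not the latest of its group for 3p, at 27.79 against 27.84 in tumor mouse 1. The low level was not particular to miR-126a in this mouse. By distance from the mean of the other tumor-bearing mice, 3p ranked 14 and 5p 42 from the lowest of the 252 always-detected assays.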

How the results depend on the processing

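Neither miR-126a arm passed the threshold in any comparison under any alternative run, and the lowest adjusted p was 0.0639, for 5p in tumor-bearing against wild-type mice with 1 mouse left out. Test and assay filter cannot move differences of always-detected arms. Under other scales and models 3p differed by −0.78 to −0.30 (tumor-bearing minus tumor-free) and, from wild type, −1.56 to −0.32 (tumor-free) and −2.28 to −0.67 (tumor-bearing). The 5p differences from wild type were −2.43 to −1.27 for tumor-free and −2.87 to −1.34 for tumor-bearing mice. The 5p difference between tumor-bearing and tumor-free mice turned to 0.013 against the mean of its own assay set and ran from −0.29 to 0.077 with 1 mouse left out, above 0 without tumor mouse 5 (0.077) or 6 (0.034). The cause was not tested. Replicate numbers follow accession order and pair no mice, but some label numbers recur, and with the label number as a random block neither arm was called. The arm difference was −0.67 to −0.28 (tumor-bearing minus tumor-free), 0.85 to 0.87 (tumor-free minus wild type) and 0.18 to 0.59 (tumor-bearing minus wild type) with medians, a Ct limit of 35 or without samples of 1 ending, and −0.46 to −0.14, 0.37 to 1.37 and 0.088 to 1.09 with 1 mouse left out, with no adjusted p below the threshold. With a wild-type mouse left out, the smallest possible p against wild type is larger.

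The number of assays called moved more. For tumor-bearing against tumor-free mice it was 5, and 0 with reference miRNAs, raw Ct, spike-ins, the exact permutation test or without samples of 1 ending (44, 17, 14, 57 and 29 at an unadjusted p under 0.05, limma apart from the exact test). It was 8 with the 2 groups fitted alone, 13 with the red cell index as covariate, and 2 to 10 with 1 mouse left out (2 without tumor-free 1 or 6 or tumor 3 or 4, 3 without tumor-free 3, 9 without tumor-free 2 or tumor 7, 10 without tumor 5). For tumor-free against wild type it was 2, then 1 with the median as scale, with trended and robust variances or without samples of 1 ending, 4 with reference miRNAs or undetected values set to 37, 0 with raw Ct, spike-ins or exact permutation, 7 with own-set means, 15 with the 2 groups alone, 5 with the index, and 1 to 11 with 1 mouse left out (11 without wild type 1; 1 without wild type 2 or 3 or tumor-free 2, 3 or 5; 6 without tumor-free 1 or tumor 5; 4 without tumor 1; 5 without tumor 4). For tumor-bearing against wild type it was 28, then 15 on raw Ct, 8 with spike-ins and 0 by exact permutation. It was 1 with the 2 groups alone and 14 without samples of 1 ending. With 1 mouse left out it was 8 to 49 (17 without wild type 2, 8 without wild type 3, 49 without tumor 4). The smallest exact p that 7 against 3 mice allow is 0.00833. After adjustment over all tested assays, a call then needs many assays at that smallest p together. The 0 by exact permutation in either comparison with wild type therefore cannot tell whether the limma calls hold.

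The relation between the arms passed on raw Ct only, at r = 0.77, or 0.75 without the 2 farthest mice. With raw values as −Ct, relations to the panel's mean Ct turned negative by construction, at −0.77 and −0.67 for 3p and −0.74 and −0.59 for 5p, and the 5p relation to the red cell index stood at −0.13 and −0.11, each pair without and with the 2 farthest mice removed. With group means kept, 5p and the panel's mean Ct gave −0.061.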
